A study of Homo sapiens with 32 samples.

Results

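The immediate early genes and the phosphatases that act back on their signal were followed through the HoxBan experiment as a set of 44 genes picked by symbol, out of 60107 rows of the count table, of which 30677 held at least 1 count. The set holds AP-1 and related factors (FOS, FOSB, FOSL1, FOSL2, JUN, JUNB, JUND, MAFF), zinc finger factors with SRF (EGR1, EGR2, EGR3, KLF2, KLF4, KLF6, KLF10, SNAI1), the NR4A receptors (NR4A1, NR4A2, NR4A3), MYC, the IER genes (IER2, IER3, IER5, IER5L), MAP kinase phosphatases (DUSP1, DUSP2, DUSP4, DUSP5, DUSP6, DUSP8), regulators of mRNA decay and growth (ZFP36, ZFP36L1, ZFP36L2, BTG1, BTG2), MCL1 and PIM1, and CCN1, CCN2, RND3, RHOB, PHLDA1 and PHLDA2. The set was chosen with earlier results of these data known. All 44 matched 1 row each and held counts. Of these, 39 passed the filter on low counts and entered the fit of 12849 genes. FOSB, FOSL1, EGR3, NR4A3 and CCN2 did not pass and were given no test.

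Immediate early genes are transcribed within minutes of a stimulus, from promoters on which the needed factors already sit, without new protein synthesis. Growth factors, stress and mechanical force reach them through the RAS, RAF, MEK and ERK cascade, through JNK and p38, and through SRF with its partners. Most encode transcription factors with short-lived mRNA. The dual-specificity phosphatases are induced by the same signal and remove phosphate from the MAP kinases, and ZFP36 proteins bind AU-rich mRNA and speed its decay, so that the response normally fades. In the intestinal epithelium these genes respond to growth factors, wounding and microbial products.

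The libraries were made from Caco-2, a human colon adenocarcinoma line used as a model of intestinal epithelium, with QuantSeq, which reads mRNA 3′ ends. Unedited WT cells, e.v. cells (inducible Cas9 with an empty guide vector) and cl.21 cells (Cas9 with a guide against HIF1A, 1 picked clone) were each sampled in 2D, in HoxBan monoculture and in HoxBan co-culture with Faecalibacterium prausnitzii, 3 libraries a group and 4 for WT in 2D. In HoxBan, cells on coverslips were laid upside down in medium over agar for 18 h, with the bacteria in the agar for co-culture and none for monoculture. Single WT libraries came from monoculture over agar with inulin or mucin and from stool co-culture over either. The 2D state is given by its label alone and differs from HoxBan at least in orientation and agar, which cannot be told apart, nor can a single clone be told apart from the edit it carries. Separate cultures behind the libraries of 1 group are named in no source, so the p-values measure a spread that may be technical. Libraries are called here by the study's own numbers.

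HIF1A, the edited gene, was at 129, 167, 143 and 142 CPM (counts per 1000000 of the scaled library) in WT cells in 2D, 174, 170.3 and 215 CPM in monoculture and 160.0, 206 and 180.2 CPM in co-culture. The e.v. cells held 154, 180.4 and 147 CPM in 2D, 190.2, 235 and 355 CPM in monoculture and 309, 275 and 242 CPM in co-culture, and cl.21 cells 90.3, 84.9 and 86.2, then 173, 164 and 194 and 210.1, 159 and 137 CPM. Against e.v. cells the log2 fold change of cl.21 cells was -0.89 ± 0.19 (SE) in 2D, where the lines did not overlap (adjusted p = 0.00972), and -0.61 ± 0.13 over the HoxBan groups (adjusted p = 0.00395). Reads at the 3′ end of this mRNA do not check the edit itself. Libraries held 4144373 to 6686797 counts (median 4917010). Mitochondrial genes took 4.49% to 23.6% of counts, with group medians of 5.69% to 6.32% in 2D, 10.7% to 13.8% in monoculture and 13.3% to 18.5% in co-culture, and 1 of the 2D libraries of each line stood at 14.1% to 17.1%. All 10 epithelial markers were detected, with a summed level of 3025 to 6356 CPM. The summed levels of 5 immune, 4 fibroblast and 3 endothelial markers were 5.02 to 44.9, 18.0 to 57.9 and 1.88 to 6.19 CPM, and PTPRC, CD3E, CD79A, COL1A2, DCN, VWF and CDH5 were at or near 0. LYZ, the bulk of the immune sum, was higher in e.v. than in WT cells in HoxBan (log2 2.42 ± 0.27, adjusted p = 2.23e-06), and its part in the differences between lines given further on was not tested. In bulk libraries fewer cells of a type and less RNA per cell cannot be told apart.

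Promoters of EGR1, SRF and DUSP1 are printed because they carry the sites for which this gene class is known. Each is the 250 bases before the RefSeq start on GRCh38.p14, 5′ to 3′ on the strand of the gene. Capitals mark CArG boxes, the sites that SRF binds, in EGR1 and SRF, and the cAMP response element TGACGTCA and the TATA box TATAAA in DUSP1. They lie on chromosome 5 from 138465229 to 138465478 (plus strand), chromosome 6 from 43171019 to 43171268 (plus strand) and chromosome 5 from 172771196 to 172771445 (minus strand).
EGR1 promoter: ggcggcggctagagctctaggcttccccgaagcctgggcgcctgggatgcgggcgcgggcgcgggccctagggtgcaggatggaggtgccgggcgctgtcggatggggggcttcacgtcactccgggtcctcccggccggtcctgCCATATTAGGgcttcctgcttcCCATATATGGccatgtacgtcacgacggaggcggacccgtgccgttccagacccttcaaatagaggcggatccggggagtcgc
SRF promoter: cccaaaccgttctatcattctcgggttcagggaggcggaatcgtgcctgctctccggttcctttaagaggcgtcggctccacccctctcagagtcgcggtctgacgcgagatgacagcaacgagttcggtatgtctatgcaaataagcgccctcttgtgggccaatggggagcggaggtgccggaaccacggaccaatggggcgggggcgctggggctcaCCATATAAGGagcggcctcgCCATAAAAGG
DUSP1 promoter: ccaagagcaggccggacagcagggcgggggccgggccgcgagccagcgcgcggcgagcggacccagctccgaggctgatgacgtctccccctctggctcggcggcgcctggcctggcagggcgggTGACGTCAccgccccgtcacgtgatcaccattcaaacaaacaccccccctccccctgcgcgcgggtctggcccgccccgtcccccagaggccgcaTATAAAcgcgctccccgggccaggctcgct
The CArG boxes of EGR1 begin 105 and 83 bases before the start and those of SRF 30 and 10 bases before it. In DUSP1, TGACGTCA begins 125 and TATAAA 30 bases before the start.

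Over the same 250 bases, searched on both strands, a CArG box was found in 4 of 31 members (EGR1, EGR2, RND3 and SRF) and in 1.16% of 35116 promoters. The 31 are the members with an entry in the RefSeq promoter set used. TGACGTCA was in 5 of 31 (DUSP1, DUSP8, JUND, MAFF and ZFP36L1) against 1.65% of promoters, and TATAAA in 7 of 31 against 10.7%. The AP-1 site TGACTCA was in none of the 31 and in 4.2% of promoters, and ACGTG, the core to which HIF1 binds, was in 10 of 31 against 18.5%. A member was counted once if any of its entries matched (38 entries for 31 members), while the percentages run over single promoter entries. The shares are therefore not like for like. These are matches of letters, with no measure of binding. The members were compact: their genes spanned a median of 5625.5 bases against 29494 bases over 12755 genes of the fit with a GENCODE 29 entry, with 4 against 10 separate exon blocks. PHLDA2 was the shortest, at 1183 bases (chromosome 11 from 2928273 to 2929455), and EGR2 the longest at 107905 bases. JUN, JUNB, JUND, IER3, IER5, IER5L and RHOB consist of 1 exon block.

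The first comparison asked how these genes stood in HoxBan monoculture against 2D. In all 3 lines most of the set was higher in HoxBan. In WT cells 22 members rose and 2 fell among 39 tested, 61.5% of them, with 14.8% of all genes called (6.19% higher, 8.59% lower). Of the same 39, 27 rose and 3 fell in e.v. cells, 76.9% of them, with 21.6% of all genes called (10.3% higher, 11.3% lower). The cl.21 cells gave 28 that rose and 2 that fell, again 76.9%, with 20.1% of all genes called (10.1% higher, 10% lower). The median log2 fold change of the 39 members was 0.77 in WT, 1.52 in e.v. and 1.72 in cl.21 cells, against 0.01, -0.01 and -0.02 over all genes tested. The members were chosen with earlier results of these data known, so their distance from all genes is no separate support. These counts and medians cover the members that passed the filter. Scarce members such as EGR2, DUSP4 and NR4A2 passed through their HoxBan libraries, so their calls as higher are no separate support. Scaling by total counts moved the median of all genes by -0.19, -0.23 and -0.14 and left 18, 25 and 26 members higher and 3, 4 and 3 lower, with no call changing sign. With the mitochondrial share in the model, an alternative added after the data were seen, 23, 25 and 28 members were higher and 2, 2 and 3 lower. Leaving out a library gave 18 to 23, 24 to 31 and 26 to 29 calls.

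**Figure D1:**
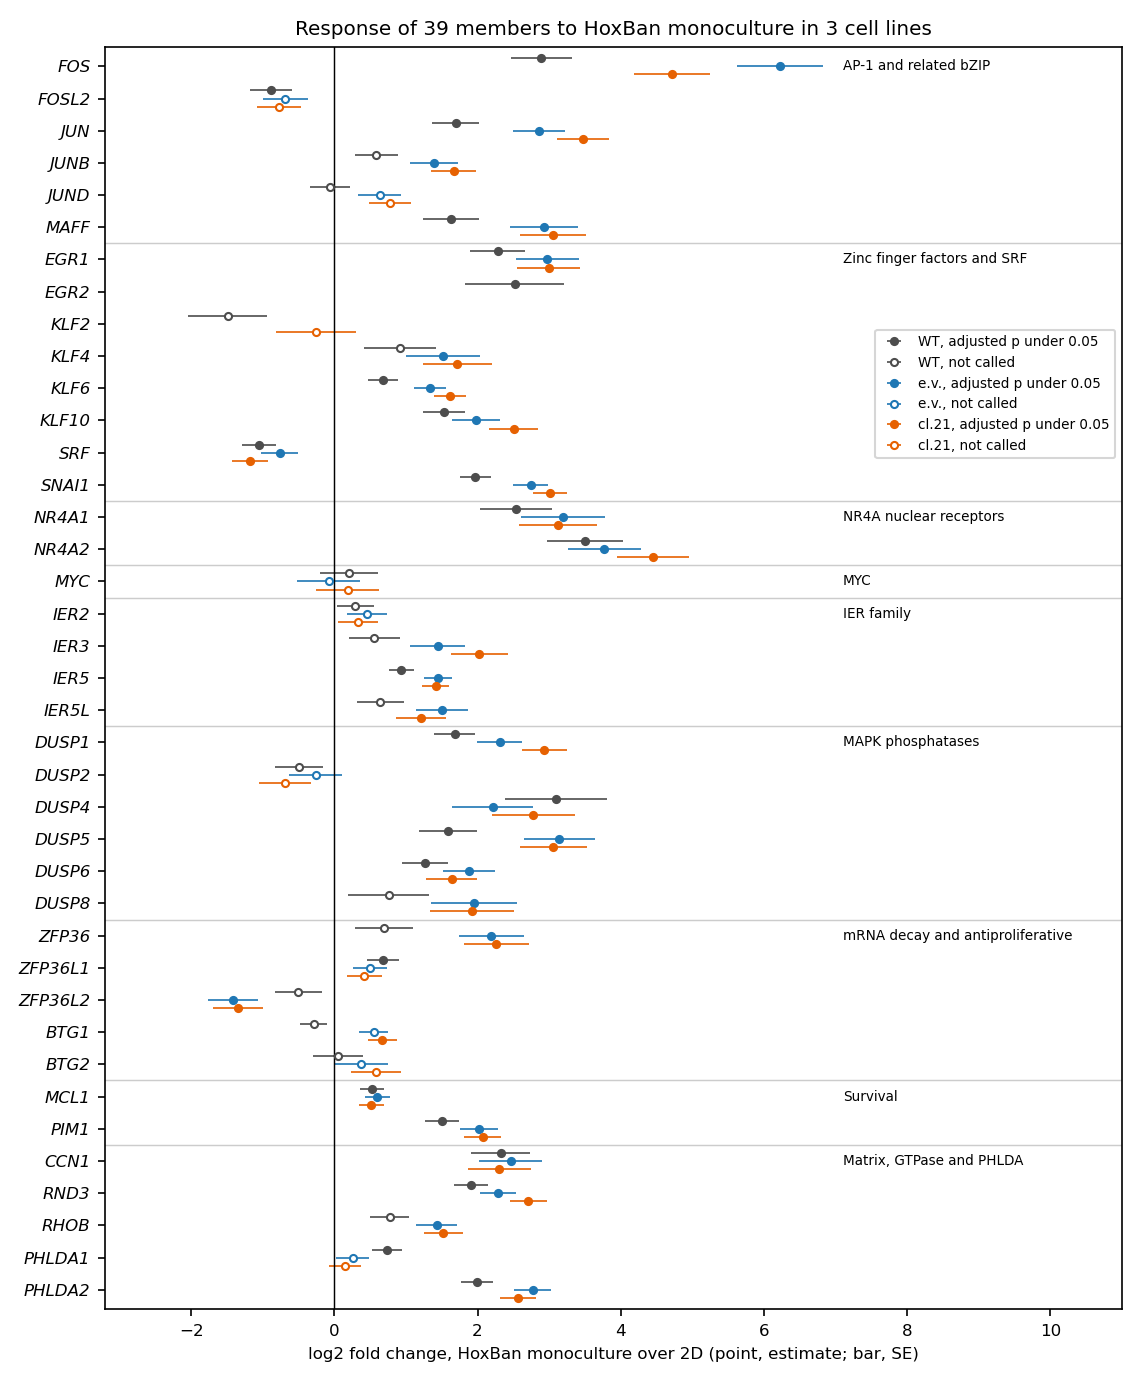
Log2 fold change (horizontal axis) of the members in the fit, HoxBan monoculture over 2D, for WT (grey), e.v. (blue) and cl.21 (orange) cells. Points are estimates, bars SE and filled points have an adjusted p under 0.05. EGR2 in e.v. and cl.21 and KLF2 in e.v. are left out because a group held 3 counts or fewer. Most points lie right of 0, from FOS at the top to PHLDA2 at the bottom, while SRF lies left of 0 in each line.

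The same 20 members rose in each of the 3 lines: FOS, JUN, MAFF, EGR1, EGR2, KLF6, KLF10, SNAI1, NR4A1, NR4A2, IER5, DUSP1, DUSP4, DUSP5, DUSP6, MCL1, PIM1, CCN1, RND3 and PHLDA2. Another 7 rose in both Cas9 lines and missed the threshold in WT cells (JUNB, KLF4, IER3, IER5L, DUSP8, ZFP36 and RHOB). ZFP36L1 and PHLDA1 passed the threshold in WT cells and BTG1 in cl.21 cells. SRF fell in each line, ZFP36L2 in both Cas9 lines, FOSL2 in WT and KLF2 in e.v. cells. JUND, MYC, IER2, DUSP2 and BTG2 were called in no line. Of the calls, 17 of 24 in WT, 23 of 30 in e.v. and 25 of 30 in cl.21 cells held under every alternative run, those that left out a library included.

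Of 6 AP-1 and related factors tested, 3 rose and 1 fell in WT cells and 4 rose in each Cas9 line. FOS and JUN pair to form the factor AP-1. In WT cells FOS (ENSG00000170345, chromosome 14 from 75278774 to 75282230 on GRCh38) stood at 17.4, 2.37, 7.36 and 2.88 CPM in the 4 libraries in 2D, 33.6, 60.5 and 75.6 CPM in monoculture and 39.2, 61.2 and 57.0 CPM in co-culture. The e.v. cells held 1.45, 0.668 and 0.835 CPM in 2D and 48.3, 109.8 and 67.7 CPM in monoculture, and in cl.21 cells at 2.89, 2.35 and 1.67 and 54.3, 86.1 and 44.6 CPM. No 2D library reached the lowest monoculture or co-culture library of its line. The log2 fold change was 2.89 ± 0.42 in WT (edgeR quasi-likelihood test, adjusted p = 3.76e-05), 6.22 ± 0.60 in e.v. (adjusted p = 9.68e-08) and 4.72 ± 0.52 in cl.21 cells (adjusted p = 7.31e-07). The e.v. cells had the widest fold and the lowest 2D level, and their monoculture level overlapped that of WT cells.

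JUN (ENSG00000177606, chromosome 1 from 58780788 to 58784327) was at 31.2, 7.58, 16.6 and 12.1 CPM in WT cells in 2D and 36.5, 82.7 and 46.8 CPM in monoculture. In e.v. cells the values were 15.0, 15.4 and 17.7 CPM in 2D and 68.6, 139 and 144 CPM in monoculture, and in cl.21 cells 16.1, 21.6 and 9.89 and 154, 198 and 178 CPM. The 2D levels of the 3 lines overlapped, and the monoculture levels of cl.21 lay above every WT library. JUN rose by 1.69 ± 0.33 in WT, 2.85 ± 0.36 in e.v. and 3.47 ± 0.37 in cl.21 cells on the log2 scale (adjusted p = 0.000746, 4.82e-06 and 3.4e-07). MAFF, a small Maf protein that pairs with other bZIP factors, rose by 1.63, 2.93 and 3.06. JUNB rose by 1.39 and 1.67 in e.v. and cl.21 cells and was at 0.59 ± 0.30 in WT cells (adjusted p = 0.207). JUNB overlaps HOOK2 on the opposite strand, which held 3809 counts against 1784 for JUNB, and without a known strand setting their reads cannot be told apart. JUND, the JUN relative with steadier expression, was at -0.06 ± 0.28, 0.63 ± 0.30 and 0.78 ± 0.30 with no call. FOSL2, the FOS relative with later kinetics, went the other way: 90.4, 70.4, 75.1 and 51.3 CPM in WT 2D against 27.1, 48.7 and 43.0 CPM in monoculture, with no overlap. It fell in WT cells (log2 -0.88 ± 0.29, adjusted p = 0.0399) and missed the threshold in e.v. (-0.68, adjusted p = 0.117) and cl.21 cells (-0.77, adjusted p = 0.0725). Its call was lost without library 5, 8, 12, 16 or 29.

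Of 8 zinc finger factors and SRF tested, 5 rose and 1 fell in WT, 6 rose and 2 fell in e.v. and 6 rose and 1 fell in cl.21 cells. EGR1 (ENSG00000120738, chromosome 5 from 138465490 to 138469315), which ERK induces through SRF and its partners, rose in every line. In WT cells it was at 57.8, 10.7, 26.1 and 13.6 CPM in 2D, 119.9, 161 and 120.4 CPM in monoculture and 56.0, 124 and 173 CPM in co-culture. The e.v. libraries went from 12.3, 13.7 and 17.4 CPM to 129, 119 and 97.2 CPM, and those of cl.21 from 11.3, 14.9 and 11.6 to 85.7, 125 and 92.3 CPM. Monoculture was clear of 2D in each line, although WT 2D was uneven, with library 5 the highest and above 1 WT co-culture library. The log2 fold changes were 2.28 ± 0.38, 2.97 ± 0.44 and 3.00 ± 0.44 (adjusted p = 0.000183, 3.04e-05 and 2.85e-05). EGR2 was scarce: e.v. cells held 1 count in 2D and 20 in monoculture, a ratio of 25.9 with a 95% counting interval of 4.14 to 1074. In cl.21 cells EGR2 held 1 and 61 counts, a ratio of 80.0 (13.8 to 3209), and in WT cells it rose by 2.52 ± 0.69 (adjusted p = 0.0144), a call lost without library 19 (adjusted p = 0.103). EGR3 held no count in 2D in e.v. or cl.21 cells and 8 and 16 counts in monoculture. The 95% counting intervals of these ratios begin at 2.21 and 5.05. In WT cells EGR3 held 3 counts in 2D and 2 in monoculture, a ratio of 1.02 (0.0852 to 8.90).

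SNAI1 (ENSG00000124216, chromosome 20 from 49982999 to 49988886), a repressor of CDH1 and other epithelial genes, had the smallest adjusted p of the set in each line. It was at 13.0, 6.94, 14.4 and 14.0 CPM in WT 2D and 34.5, 54.4 and 54.8 CPM in monoculture. For e.v. cells the change was from 8.88, 6.01 and 8.85 to 40.4, 66.9 and 54.0 CPM, and for cl.21 cells from 10.8, 9.78 and 9.44 to 74.9, 79.3 and 87.6 CPM. The groups were far apart in each line, and SNAI1 rose by 1.97 ± 0.21, 2.75 ± 0.24 and 3.01 ± 0.24 on the log2 scale (adjusted p = 7.69e-07, 4.45e-08 and 4.16e-09). CDH1, the gene of E-cadherin, was at 0.07 ± 0.16, 0.23 ± 0.17 and 0.23 ± 0.17 with no call. Of the Krüppel-like factors, KLF10, a gene induced by TGF-β, had 27.1, 12.0, 30.2 and 15.2 CPM in WT 2D and 37.6, 81.7 and 66.8 CPM in monoculture, in e.v. cells 13.8, 12.0 and 14.9 and 46.6, 66.0 and 49.8 CPM, and in cl.21 cells 12.2, 8.73 and 8.22 and 53.5, 53.9 and 58.5 CPM. It rose by 1.53, 1.98 and 2.51, and KLF6 rose by 0.68, 1.34 and 1.62. The WT call of KLF6 (adjusted p = 0.0255) was lost with total counts, with only the compared groups or without library 8, 19, 27 or 29. KLF4, a factor of differentiated gut epithelium, rose by 1.52 and 1.72 in the Cas9 lines and was at 0.92 ± 0.51 in WT cells (adjusted p = 0.244). KLF2 held 19 counts in 2D and 3 in monoculture in e.v. cells, a ratio of 0.205 (0.0388 to 0.695), and its call was lost in DESeq2, with the mitochondrial share in the model, without the filter and without library 11, 15, 23, 25 or 26. KLF2 was not called in WT (-1.49 ± 0.55) or cl.21 cells (-0.26 ± 0.56). The e.v. call of KLF4 was lost with the mitochondrial share in the model, with total counts and without library 15, 23, 25, 26 or 32 and the cl.21 call without library 24.

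SRF (ENSG00000112658, chromosome 6 from 43171299 to 43181507), the factor that binds CArG boxes, fell where most genes of the set rose. In WT cells it was at 61.4, 66.4, 62.8 and 50.3 CPM in 2D, 40.0, 18.4 and 29.3 CPM in monoculture and 13.1, 15.4 and 15.3 CPM in co-culture. The e.v. libraries were at 49.5, 34.0 and 49.9, then 31.1, 26.2 and 22.2 and 22.5, 9.73 and 14.1 CPM, and those of cl.21 at 65.0, 64.4 and 54.0, then 24.0, 38.2 and 19.5 and 13.3, 15.2 and 14.7 CPM. Monoculture did not overlap 2D in any line. Its log2 fold change was -1.05 ± 0.24 in WT (adjusted p = 0.00355), -0.76 ± 0.26 in e.v. (adjusted p = 0.0324) and -1.18 ± 0.25 in cl.21 cells (adjusted p = 0.00151). The e.v. call was lost with the mitochondrial share in the model and without library 15, 23, 25 or 32.

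Both NR4A receptors tested, nuclear receptors with no known natural ligand, rose in every line. NR4A1 (ENSG00000123358, chromosome 12 from 52022832 to 52059507) was at 9.72, 4.89, 5.15 and 5.76 CPM in WT 2D and 14.7, 39.3 and 59.1 CPM in monoculture, with 3.62, 4.67 and 4.34 and 13.5, 72.7 and 31.6 CPM in e.v. cells. In cl.21 cells it was at 7.46, 5.48 and 7.31 and 57.6, 26.6 and 90.4 CPM. The monoculture libraries of each line were spread widely, and none came down to a 2D library. The log2 fold changes were 2.53 ± 0.50, 3.20 ± 0.58 and 3.12 ± 0.55 (adjusted p = 0.00106, 0.000301 and 0.000208). NR4A2 (ENSG00000153234), at 0.368 to 1.17 CPM over the 10 libraries in 2D, was at 2.18, 9.18 and 8.15 CPM in WT, 5.86, 16.7 and 16.5 CPM in e.v. and 18.2, 6.71 and 20.1 CPM in cl.21 monoculture. It rose by 3.50 ± 0.53, 3.77 ± 0.51 and 4.45 ± 0.51 (adjusted p = 6.47e-05, 9.76e-06 and 1.07e-06).

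MYC, which drives growth and division, was called in no line. It was at 97.8, 57.6, 103 and 72.1 CPM in WT 2D and 139, 62.4 and 86.1 CPM in monoculture, and its log2 fold changes were 0.20 ± 0.40, -0.08 ± 0.44 and 0.19 ± 0.44 with no call. The e.v. monoculture libraries were far apart, at 124, 50.5 and 11.1 CPM. Of the 4 IER genes, 1 rose in WT cells and 3 in each Cas9 line. IER2, commonly among the earliest genes induced, was not called (0.29, 0.46 and 0.33). IER5, a gene of stress and heat shock responses, was at 31.4, 32.7, 42.9 and 36.3 CPM in WT 2D and 55.6, 91.8 and 61.1 CPM in monoculture. The e.v. cells had 29.2, 25.7 and 33.4 and 73.1, 92.9 and 77.8 CPM and the cl.21 cells 41.0, 43.3 and 42.2 and 102, 138 and 98.8 CPM. The groups did not overlap, and IER5 rose by 0.94 ± 0.17, 1.45 ± 0.19 and 1.42 ± 0.19 (adjusted p = 0.000583, 8.01e-06 and 7.18e-06). IER3 rose by 1.44 and 2.03 and IER5L by 1.51 and 1.21 in the Cas9 lines. The e.v. call was lost without library 26 for IER3 and without 15 for IER5L, and the cl.21 call of IER5L without library 4 or 31. IER3 overlaps IER3-AS1 on the opposite strand, which held 359 counts against 8906 for IER3.

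**Figure D2:**
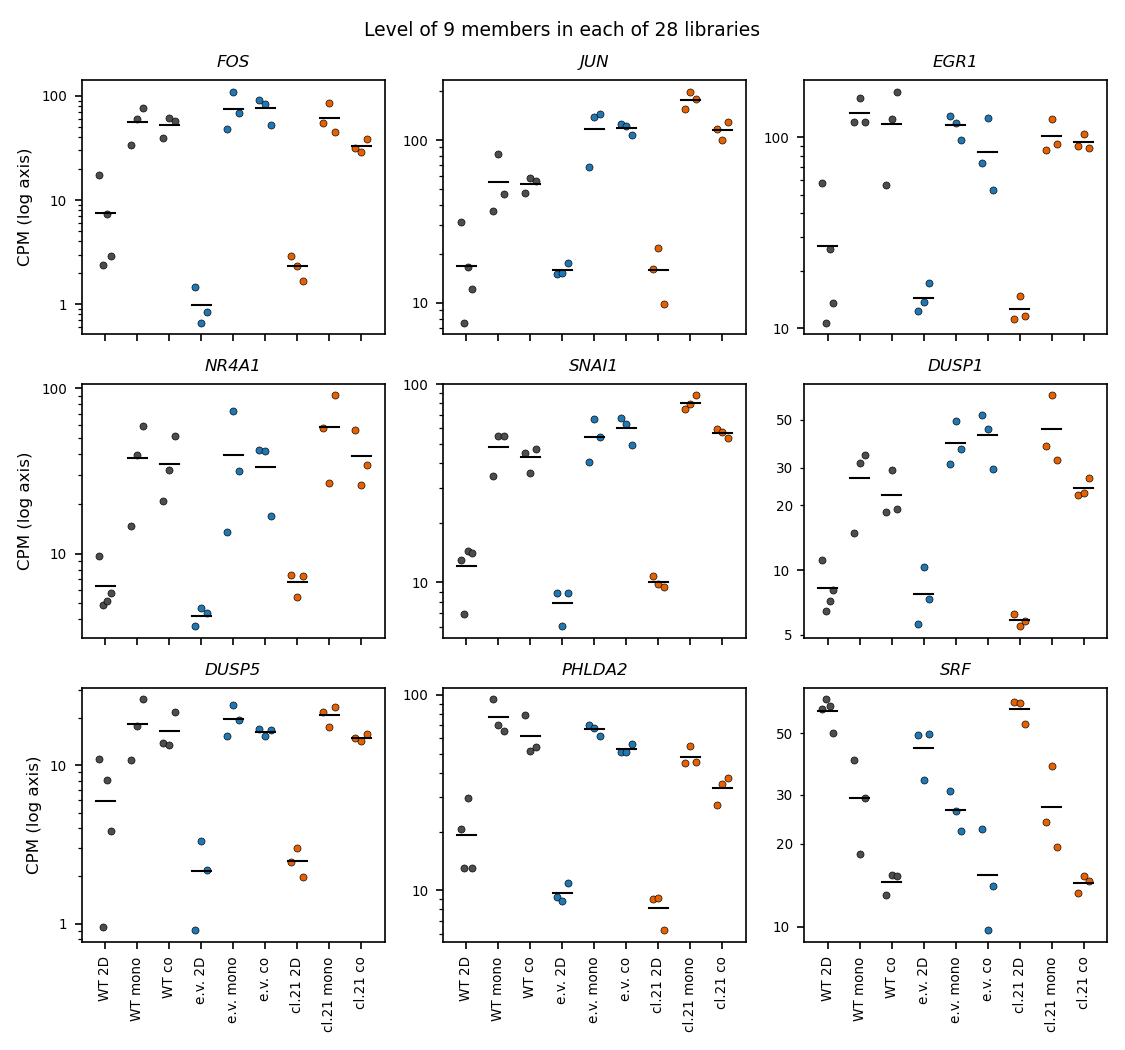
Level of 9 members (CPM, log axis) in each of the 28 libraries of the 9 groups, with WT in grey, e.v. in blue and cl.21 in orange. Points are libraries and bars group means. The 2D libraries are the lowest of each line for FOS, JUN, NR4A1, SNAI1, DUSP1 and PHLDA2 and the highest for SRF. The WT 2D and HoxBan points of EGR1 and DUSP5 touch.

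Of the 6 MAP kinase phosphatases, 4 rose in WT cells and 5 in each Cas9 line. DUSP1 (ENSG00000120129, chromosome 5 from 172768090 to 172771195), a nuclear phosphatase that acts on p38, JNK and ERK, was at 11.2, 6.47, 7.18 and 8.07 CPM in WT 2D and 14.9, 31.6 and 34.2 CPM in monoculture. In e.v. cells the levels were 5.62, 10.3 and 7.35 and 31.3, 49.6 and 36.8 CPM and in cl.21 cells 6.24, 5.48 and 5.78 and 37.8, 65.0 and 32.6 CPM. Each line was clear of overlap, with fold changes of 1.68 ± 0.29, 2.31 ± 0.31 and 2.93 ± 0.32 on the log2 scale (adjusted p = 0.000228, 9.98e-06 and 5.29e-07). DUSP5, which acts on ERK in the nucleus, rose by 1.59 ± 0.40, 3.14 ± 0.49 and 3.06 ± 0.47. Its WT groups touched (2D 0.947 to 11.0 CPM, monoculture 10.7 to 26.1 CPM), and that call was lost with only the compared groups or without library 29. DUSP4, another nuclear phosphatase, was scarce in 2D, with 0 to 0.835 CPM over the 10 libraries, and reached 1.09 to 4.69 CPM in monoculture (log2 3.10, 2.21 and 2.78).

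DUSP6 (ENSG00000139318, chromosome 12 from 89347232 to 89353271), the cytoplasmic phosphatase of ERK, was at 113, 36.8, 152 and 57.6 CPM in WT 2D, 252, 199.7 and 205 CPM in monoculture and 170.4, 243 and 265 CPM in co-culture. The e.v. cells held 37.0, 24.2 and 32.6, then 173, 90.8 and 85.4 and 120.3, 135 and 83.4 CPM, and in cl.21 cells 42.6, 30.0 and 30.1, then 95.8, 148 and 78.0 and 99.6, 136 and 105 CPM. No line overlapped between 2D and HoxBan, and DUSP6 rose by 1.27 ± 0.32 (adjusted p = 0.00825), 1.88 ± 0.37 (adjusted p = 0.000582) and 1.64 ± 0.36 (adjusted p = 0.00195). DUSP8, which prefers JNK and p38, rose by 1.95 and 1.93 in the Cas9 lines, and the e.v. call was lost with the mitochondrial share in the model or without library 15, 23, 25, 26 or 32, the cl.21 call without library 1, 24 or 31. DUSP2 was at -0.50, -0.26 and -0.69 with no call.

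The 5 regulators of mRNA decay and growth split, with 1 higher in WT, 1 higher and 1 lower in e.v. and 2 higher and 1 lower in cl.21 cells. ZFP36, tristetraprolin, was at 11.2, 10.8 and 7.85 CPM in e.v. 2D and 41.2, 67.2 and 29.7 CPM in monoculture, and at 12.9, 9.65 and 8.83 and 44.4, 55.1 and 51.9 CPM in cl.21 cells. It rose by 2.19 ± 0.46 (adjusted p = 0.00109) and 2.26 ± 0.45 (adjusted p = 0.000722), while WT cells overlapped (2D 6.79 to 35.4 CPM, monoculture 18.4 to 48.3 CPM). Its relative ZFP36L2 went down: 449, 529 and 535 CPM in e.v. 2D against 230.4, 208 and 136 CPM, and 651, 576 and 641 against 245, 213 and 279 CPM in cl.21 cells. The log2 fold change of ZFP36L2 was -1.41 ± 0.35 in e.v. (adjusted p = 0.00494) and -1.34 ± 0.35 in cl.21 cells (adjusted p = 0.00766), with no overlap, and -0.50 ± 0.33 in WT cells (adjusted p = 0.329). ZFP36L1 rose in WT cells by 0.67 ± 0.22 (adjusted p = 0.0416), a call lost with total counts or without library 5, 8, 12, 27 or 29. BTG1, which slows proliferation, was at 154, 169 and 132 CPM in cl.21 2D and 243, 183 and 298 CPM in monoculture. It rose by 0.67 ± 0.20 in cl.21 cells (adjusted p = 0.0197), lost with total counts or without library 1, 4, 24 or 31, and was at -0.29 ± 0.19 in WT and 0.55 ± 0.20 in e.v. cells. BTG2, its relative, was at 0.05, 0.37 and 0.58 with no call.

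Of the survival genes, PIM1 rose in each line under every alternative, while MCL1 rose in each line with calls lost under several. PIM1, a kinase, was at 42.2, 41.4, 37.9 and 42.1 CPM in WT 2D and 71.4, 139 and 144 CPM in monoculture. The e.v. libraries were at 31.0, 38.9 and 34.4 and 144, 195 and 88.5 CPM, and those of cl.21 at 36.2, 31.4 and 42.2 and 135, 177 and 152 CPM. With narrow 2D groups and no overlap, it rose by 1.51 ± 0.24, 2.02 ± 0.26 and 2.07 ± 0.26 (adjusted p = 9.91e-05, 6.55e-06 and 3.99e-06). MCL1, a short-lived inhibitor of apoptosis, rose by 0.53, 0.60 and 0.52. Its WT call was lost under 8 alternatives (total counts, no filter, only the compared groups, and without library 5, 8, 19, 27 or 29) and the e.v. call under 4 (total counts and without library 15, 26 or 32). In cl.21 cells it was lost under 8, with total counts, without the filter and without any single library of the comparison.

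Of CCN1, RND3, RHOB, PHLDA1 and PHLDA2, 4 rose in each line. CCN1 (ENSG00000142871), a secreted matrix protein and target of SRF and YAP, was at 9.90, 19.1, 8.84 and 17.1 CPM in WT 2D and 60.3, 39.8 and 109 CPM in monoculture, 22.8, 18.5 and 20.2 and 145, 131 and 67.2 CPM in e.v. cells, and 11.6, 18.6 and 25.3 and 87.5, 136 and 53.8 CPM in cl.21 cells. No groups overlapped, and CCN1 rose by 2.32 ± 0.41, 2.46 ± 0.44 and 2.30 ± 0.44 (adjusted p = 0.000335, 0.000262 and 0.000514). CCN2, a related target of the same factors, was not tested, with at most 0.384 CPM in 2D and 1.43 CPM in HoxBan. RND3 (ENSG00000115963), which opposes RHOA, was at 31.2, 28.9, 36.3 and 30.9 CPM in WT 2D and 71.2, 140.4 and 152 CPM in monoculture. For e.v. cells the values were 36.6, 49.2 and 39.2 and 131, 189 and 298 CPM, and for cl.21 cells 29.4, 24.6 and 24.1 and 178, 158 and 175 CPM. The groups stood apart, and RND3 rose by 1.91 ± 0.23, 2.29 ± 0.26 and 2.71 ± 0.26 (adjusted p = 4.69e-06, 8.09e-07 and 8.67e-08). RHOB, a small GTPase of endosomes, rose by 1.43 and 1.52 in the Cas9 lines and was at 0.77 ± 0.27 in WT cells (adjusted p = 0.0516).

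PHLDA2 (ENSG00000181649), an imprinted gene that limits placental growth, was at 20.5, 12.9, 29.8 and 13.1 CPM in WT 2D and 95.0, 69.9 and 65.8 CPM in monoculture. The e.v. libraries went from 9.24, 8.84 and 10.9 to 70.5, 68.1 and 61.3 CPM, and those of cl.21 from 8.98, 9.13 and 6.24 to 44.9, 54.8 and 45.2 CPM. These groups stood well apart, with log2 fold changes of 2.00 ± 0.22, 2.77 ± 0.25 and 2.56 ± 0.25 (adjusted p = 8.78e-07, 5.13e-08 and 1.3e-07). PHLDA1 rose by 0.73 ± 0.21 in WT cells (adjusted p = 0.0195), lost with total counts, with only the compared groups or without library 12, 16 or 29, and was at 0.26 and 0.15 in the Cas9 lines.

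Co-culture against 2D, a comparison added after the data were seen, shares its 2D libraries with the first. Here 20, 25 and 23 members rose and 3 each fell in WT, e.v. and cl.21 cells, 59.0%, 71.8% and 66.7% of 39. WT cells had 25.3% of all genes called (11.5% higher, 13.8% lower), e.v. cells 31.2% of all genes called (14.4% higher, 16.9% lower) and cl.21 cells 24.8% of all genes called (11.5% higher, 13.3% lower). The 20 that rose in each line were the 20 named for monoculture with IER5L in place of MCL1, and FOSL2, SRF and ZFP36L2 fell in each line. Of the calls, 16 of 23 in WT, 22 of 28 in e.v. and 20 of 26 in cl.21 cells held under every alternative run. In WT cells MAFF was lost under 8 alternatives and KLF6 and IER5L under 7 each, and in cl.21 cells IER5L and DUSP4 under 8 each. With total counts the split changed to 16 against 7 in WT, 21 against 5 in e.v. and 18 against 5 in cl.21 cells, while the median of all genes moved by -0.34, -0.34 and -0.32.

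The mRNA of the cascade that feeds these genes was followed as a separate list. This list and that of ERK feedback were also chosen with earlier results of these data known, so their shares are no separate support. Of 27 genes of the ERK and MAP kinase cascade 26 were tested, none rose in monoculture in any line, and 3, 5 and 1 fell in WT, e.v. and cl.21 cells. These are 11.5%, 19.2% and 3.85% of the 26, beside 8.59%, 11.3% and 10% of all genes that fell. CREB1, which binds the cAMP response element, fell in each line (log2 -0.70 ± 0.19, -0.90 ± 0.20 and -0.93 ± 0.20), and ELK4, a partner of SRF, fell in WT and e.v. cells (log2 -0.83 and -0.84). Of 20 genes of ERK feedback and delayed response 18 were tested, and 3, 8 and 7 rose while 1 fell in each line, so that 22.2%, 50% and 44.4% were called, beside 14.8%, 21.6% and 20.1% of all genes. ATF3, a stress-induced bZIP factor, rose by 2.56 ± 0.42, 3.48 ± 0.46 and 3.59 ± 0.44, and ERRFI1, an inhibitor of EGFR, by 1.42, 1.74 and 1.71. DUSP14 rose by 0.86, 1.26 and 1.01. SPRY4, which blocks RAS activation, rose by 1.90 and 1.86 in the Cas9 lines. DUSP16, a phosphatase of JNK and p38, was the gene that fell (log2 -0.75 ± 0.19, -1.09 ± 0.21 and -1.03 ± 0.20).

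The second comparison asked what F. prausnitzii added to HoxBan. Within a line no member passed the threshold in edgeR, and neither did any other gene (0% of 12849). At an unadjusted p under 0.05 there were 1 member in WT, 2 in e.v. and 14 in cl.21 cells, of 39 tested. Over all 12849 genes there were 555, 791 and 908. DESeq2 also called no member within a line. Averaged over the 3 lines, SRF was the 1 member to pass, downward, 2.56% of the 39, with 1.99% of all genes called (0.817% higher, 1.18% lower). Its log2 fold change was -0.88 ± 0.16 (95% interval -1.20 to -0.56, adjusted p = 0.00499), with intervals of -1.56 to -0.45 in WT, -1.32 to -0.21 in e.v. and -1.43 to -0.31 in cl.21 cells. The co-culture libraries lay below every monoculture library in WT and cl.21 cells, and in e.v. cells 1 of 3 overlapped. With only the HoxBan groups in the fit SRF was at -0.88 (adjusted p = 0.0504), and it stayed past the threshold without any single library.

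None of the other 38 members passed. Of 39 estimates 36 were negative, with a median of -0.33 against -0.02 over all genes tested. ZFP36L2 was at -0.75 ± 0.20 (adjusted p = 0.0506), ZFP36 at -0.67 ± 0.25 (adjusted p = 0.135), JUND at -0.51 ± 0.17 (adjusted p = 0.102) and DUSP8 at -0.80 ± 0.34 (adjusted p = 0.206). CCN1, RND3 and DUSP6 were the 3 with positive estimates, at 0.11 ± 0.24, 0.09 ± 0.14 and 0.05 ± 0.20. For DUSP6 the interval of the difference was -0.36 to 0.46, and for FOS -0.80 to 0.18. Total counts gave 10 members lower while the median of all genes moved by -0.15, and the mitochondrial share in the model gave 8 lower. Calls over all genes went up at the same time, from 256 to 1121 and 1414. The number of members called was 7 without library 14 (957 of all genes), 4 without 25 (374), 3 without 28 (690) and 2 without 17 (510). Of the genes of ERK feedback, DUSP7 (-0.86 ± 0.18, adjusted p = 0.0168) and DUSP16 (-0.52 ± 0.12, adjusted p = 0.0261) fell.

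The third comparison set cl.21 cells against e.v. cells, both of which carry Cas9. In 2D, monoculture and co-culture taken singly no member passed in edgeR, with 1% of all genes called (0.537% higher, 0.467% lower) in 2D, 1.12% of all genes called (0.545% higher, 0.576% lower) in monoculture and 1.17% of all genes called (0.506% higher, 0.662% lower) in co-culture. An unadjusted p under 0.05 was reached by 4, 6 and 10 of 39 members, beside 1122, 1337 and 1383 of 12849 genes, and DESeq2 called no member. The study, whose edgeR design is not stated in full, listed FOS and IER3 as lower in co-cultured HIF1A-null cells than in co-cultured control cells. Neither passed the threshold for co-culture in the fit used here. A missed threshold does not show that the listed differences are absent. Over both HoxBan groups 1 member passed upward and 2 downward, 7.69% of 39, with 5.56% of all genes called (2.84% higher, 2.72% lower). BTG2 was at 5.45, 17.6 and 16.3 and 12.0, 11.4 and 6.68 CPM in e.v. monoculture and co-culture and at 29.4, 17.1 and 33.4 and 21.6, 10.8 and 18.9 CPM in cl.21 cells. It was higher in cl.21 by 0.92 ± 0.27 (adjusted p = 0.0381), although the libraries overlapped. PHLDA1 was at 135, 114 and 106 and 132, 102 and 81.4 CPM in e.v. cells and 81.5, 93.9 and 71.1 and 64.7, 56.8 and 57.4 CPM in cl.21 cells, below all e.v. libraries in monoculture and in co-culture (log2 -0.66 ± 0.16, adjusted p = 0.0143). PHLDA2 also lay lower in cl.21 cells in both (log2 -0.55 ± 0.16, adjusted p = 0.0479).

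Each of these 3 calls was lost under at least 1 alternative. PHLDA1 lost its call without library 14, and the number of members called was 1 without library 4, 14, 17, 18, 24 or 30. BTG2 was lost under 8 alternatives, with only the compared groups fitted and without library 4, 11, 17, 18, 22, 24 or 30. PHLDA2 was lost under 13, with total counts, upper-quartile factors and each library of the comparison left out except library 7, and the mitochondrial share in the model gave 5 calls. ZFP36L1 (-0.56 ± 0.17, adjusted p = 0.0538) and FOS (-0.73 ± 0.29, adjusted p = 0.161) were not called. A test of whether the HoxBan response itself differed between cl.21 and e.v. cells called no member in edgeR and none in DESeq2. At an unadjusted p under 0.05 it had no member, beside 180 of 12849 genes. For FOS that difference of differences was -1.51 (95% interval -3.28 to 0.27), for EGR1 0.02 (-1.19 to 1.23) and for DUSP1 0.62 (-0.28 to 1.52). A test of whether the response to the bacteria differed called no member in edgeR or DESeq2. At an unadjusted p under 0.05 it had 3 of 39 members, beside 169 of 12849 genes.

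Each Cas9 line was also set against WT cells, and these comparisons share their WT libraries. In 2D, FOS, DUSP6 and PHLDA2 were lower in e.v. than in WT cells, with log2 fold changes of -2.91 ± 0.64, -1.53 ± 0.35 and -0.99 ± 0.24 (adjusted p = 0.0203, 0.0243 and 0.0383), 7.69% of 39, with 1.28% of all genes called (0.809% higher, 0.467% lower). DUSP6 and PHLDA2 were lower in cl.21 than in WT cells (log2 -1.41 ± 0.34 and -1.24 ± 0.24, adjusted p = 0.0306 and 0.00455), 5.13% of 39, with 1.46% of all genes called (0.677% higher, 0.786% lower). None of these 5 calls held when only the compared groups were fitted. The 4 WT libraries in 2D were uneven for the set: library 5 was the highest in 21 of 39 members and library 8 the lowest in 28. No member was called between e.v. and WT without library 5, 23, 26 or 32, and 1 was called without library 12 and 5 without library 8. Between cl.21 and WT 0 were called without library 31, 1 without library 1, 2, 5 or 12 and 6 without library 8.

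In HoxBan, 6 members were higher and 2 lower in e.v. than in WT cells, 20.5% of 39, with 11% of all genes called (6.09% higher, 4.9% lower). In cl.21 cells 7 were higher and 2 lower, 23.1% of 39, with 11.4% of all genes called (6.62% higher, 4.73% lower). JUN was higher by 1.11 ± 0.24 in e.v. (adjusted p = 0.0035) and 1.40 ± 0.24 in cl.21 cells (adjusted p = 0.000433), and it held under every alternative in both. The 6 WT libraries in HoxBan had 36.5 to 82.7 CPM of JUN and the 12 of the Cas9 lines 68.6 to 198 CPM. DUSP6 was lower in both, also under every alternative, with 95% intervals of -1.47 to -0.45 in e.v. (adjusted p = 0.0125) and -1.51 to -0.50 in cl.21 cells (adjusted p = 0.0091). Its WT libraries in HoxBan lay at 170.4 to 265 CPM against 78.0 to 173 CPM in the Cas9 lines, so that the ranges touched. Of the calls, 2 of 8 in e.v. and 5 of 9 in cl.21 cells held under every alternative. NR4A2, BTG1 and RHOB were higher in both, NR4A2 by 1.08 and 0.91, BTG1 by 0.50 and 0.44 and RHOB by 0.72 and 0.72. NR4A2 was lost under 2 alternatives in e.v. and 8 in cl.21 cells, BTG1 under 4 and 10 and RHOB under 2 and 1. DUSP1 (0.74) and RND3 (0.69) were higher and ZFP36L2 (-1.05) lower in e.v. cells, lost under 5, 2 and 1 alternatives. SNAI1 (0.60), IER5 (0.57) and BTG2 (0.87) were higher and PHLDA2 (-0.77) lower in cl.21 cells, and of these BTG2 was lost under 7 alternatives and the others under none.

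The libraries behind these calls were as follows. RHOB was at 11.6, 15.8 and 14.3 and 11.2, 11.3 and 14.1 CPM in WT monoculture and co-culture, 16.8, 32.0 and 24.1 and 21.4, 20.2 and 15.1 CPM in e.v. and 24.9, 26.8 and 27.9 and 16.8, 13.7 and 20.1 CPM in cl.21 cells. BTG1 was at 146, 197 and 149 and 179, 142 and 185 CPM in WT, 197, 246 and 299 and 245, 214 and 214 CPM in e.v. and 243, 183 and 298 and 207, 201 and 208 CPM in cl.21 cells. BTG2, given above for the Cas9 lines, was at 7.27, 18.1 and 13.0 and 6.13, 13.1 and 14.1 CPM in WT cells. For RHOB both Cas9 lines were clear of WT in monoculture, and cl.21 touched it in co-culture. For BTG1 they were clear of WT in co-culture and met or overlapped it in monoculture, and BTG2 overlapped. ZFP36L2 was at 275, 436 and 374 and 89.5, 184 and 386 CPM in WT and 134, 102 and 54.9 CPM in e.v. co-culture, where the lines overlapped, while e.v. monoculture lay below WT. Co-culture levels of JUN were 47.4, 58.2 and 56.3 CPM in WT, 126, 123 and 107 CPM in e.v. and 118, 100.4 and 128 CPM in cl.21 cells, and those of NR4A2 were 5.52, 4.28 and 6.72, 12.9, 12.8 and 11.1 and 10.1, 7.48 and 6.71 CPM. JUN was clear of WT in co-culture in both Cas9 lines, and NR4A2 in e.v. cells.

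In co-culture DUSP1 was at 18.6, 29.2 and 19.2 CPM in WT and 52.5, 45.3 and 29.7 CPM in e.v. cells, and RND3 at 98.7, 160.4 and 149 and 222, 226 and 182 CPM. SNAI1 was at 45.0, 35.8 and 47.2 CPM in WT and 59.1, 57.5 and 53.2 CPM in cl.21 cells, and IER5 at 59.3, 49.3 and 66.0 and 66.8, 83.6 and 80.6 CPM. PHLDA2 was at 79.3, 51.9 and 54.0 CPM in WT, 50.8, 51.0 and 56.4 CPM in e.v. and 27.4, 35.1 and 37.8 CPM in cl.21 cells. None of these 5 overlapped in co-culture between WT and the line named in the call. In monoculture, with values given above, DUSP1 and RND3 overlapped between WT and e.v. cells. SNAI1, IER5 and PHLDA2 did not overlap there between WT and cl.21 cells. The share of all genes without overlap was not counted.

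Without library 16, the WT monoculture library that was the lowest in 29 of 39 members, 5 members were called in each. The e.v. cells also had 4 calls when only the compared groups were fitted. Cas9 and the viral transfer and drug selection that brought it cannot be told apart.

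**Figure D3:**
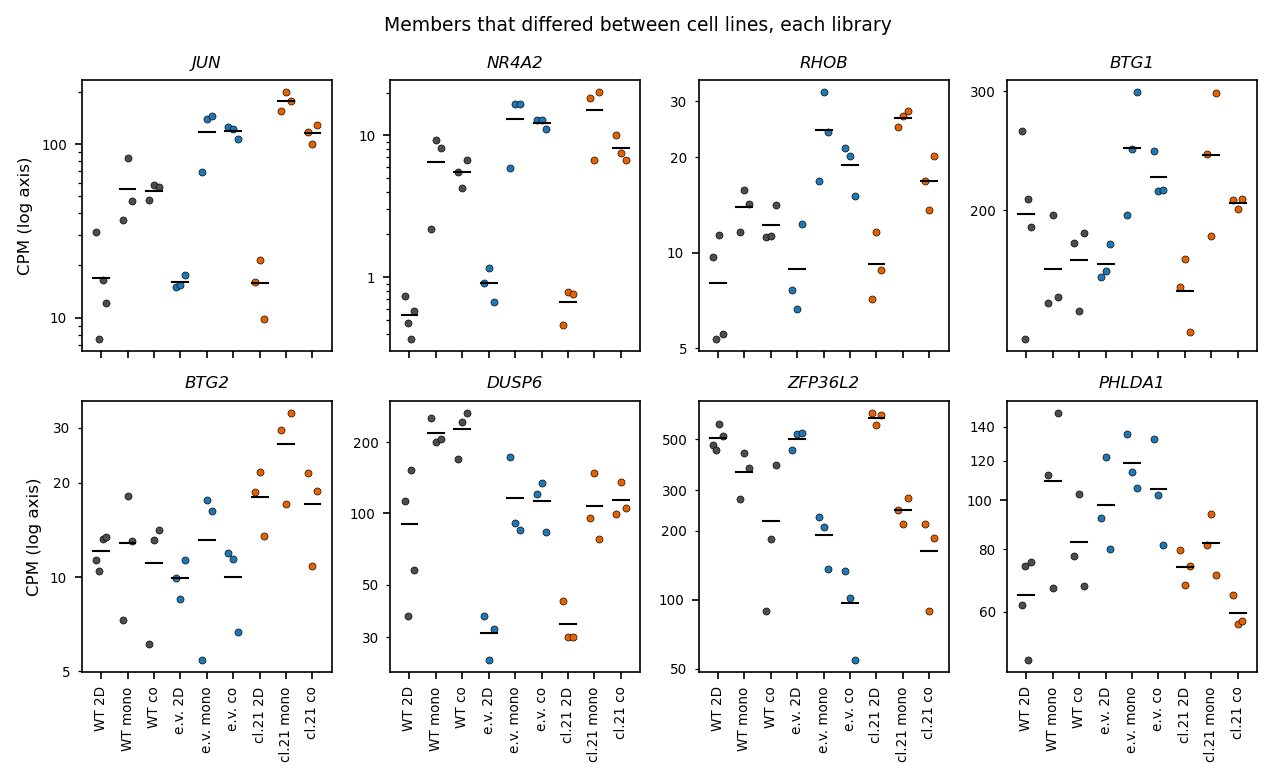
Level (CPM, log axis) of 8 members in each library, by line and condition, with WT in grey, e.v. in blue and cl.21 in orange. Points are libraries and bars group means. The group means of JUN in HoxBan are higher in both Cas9 lines than in WT cells, and those of DUSP6 are lower.

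Whether the HoxBan response differed between WT and the Cas9 lines was tested after the data were seen. No member passed in edgeR or DESeq2 for e.v. (9 at an unadjusted p under 0.05 in edgeR) or cl.21 cells (15), with 0% of all genes called. At that unadjusted p there were 439 and 531 of 12849 genes. Of the estimates, 33 of 39 were positive for e.v. (median 0.61) and 30 for cl.21 cells (median 0.75). For FOS the difference, e.v. minus WT, was 3.33 (95% interval 1.75 to 4.91, adjusted p = 0.609). For JUN the difference, cl.21 minus WT, was 1.78 (0.80 to 2.76, adjusted p = 1). Without the filter on low counts FOS and ZFP36 were called for e.v. cells and FOS, JUN, IER3 and ZFP36 for cl.21 cells, all with a wider response than in WT cells. The number of all genes called without the filter is not given here, so these calls do not set the members apart.

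The low libraries of a group were often those of small mitochondrial share. In 7 of the 9 groups the library that was the lowest in the most members was also the one with the smallest mitochondrial share. Among them, library 7 of cl.21 monoculture was the lowest in 16 of 39 members and the highest in 18. In 4 of the 9 groups the library most often lowest also had the lowest total counts. Such ranks were not taken over all genes. Library 22 was the lowest of the e.v. co-culture group in 28 of 39 members and had 10.5% mitochondrial counts against up to 19.6% in its group. Library 11 was the lowest of e.v. monoculture in 24 members, at 8.52% against up to 23.3%. The part of this share in the results was not tested beyond the model with the share as a term.

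The 4 single WT libraries were set beside the WT groups as values, with no test. Of the 20 members that rose in each line, 17 stood above all WT 2D libraries in all 4. The 20 were picked by calls against these same WT 2D libraries, so this count is no separate test. It was not taken over all genes. EGR1 was at 44.4 and 101 CPM over inulin and mucin in monoculture and 61.2 and 77.2 CPM with stool, all below WT monoculture. DUSP6 was at 63.1 and 104 CPM in monoculture and 64.8 and 116 CPM with stool, within the range of WT 2D, and PHLDA2 at 35.8 to 56.1 CPM was likewise below WT monoculture. KLF6, SNAI1, PIM1 and BTG1 stood above WT monoculture in all 4. SNAI1 was at 66.0, 75.8, 82.1 and 64.0 CPM. Each carbon source with or without stool has 1 library, so no spread can be given.

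The 5 members outside the fit held 41 to 135 counts each over all libraries. Their highest levels in 2D and HoxBan were 0.734 and 2.59 CPM for FOSB, 0.736 and 2.00 for FOSL1, 0.473 and 1.39 for EGR3 and 0.668 and 2.08 for NR4A3. In e.v. cells FOSB had 2 counts in 2D and 26 in monoculture, a ratio of 16.8 (95% counting interval 4.22 to 146). FOSL1 had 2 and 16 counts in cl.21 cells, a ratio of 10.5 (2.47 to 94.0). In e.v. cells FOSL1 had 3 and 7 counts, a ratio of 3.02 with an interval that includes no change (0.690 to 18.1). Such ratios were taken only where a group held 3 counts or fewer, so not every line has one. These intervals cover counting error only. FOSB overlaps ERCC1 on the opposite strand, which held 1352 counts against 135.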

How the data were processed

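RNA of 32 Caco-2 libraries was read with QuantSeq, and the authors deposited counts per Ensembl gene on GRCh38. How reads were aligned and counted, the strand setting and the annotation were not given in the sources used here. Groups came from the sample labels, 28 libraries in 9 groups and 4 single libraries. Symbols were matched to Ensembl identifiers, and coordinates came from GENCODE 29. Counts were scaled by TMM, filtered with filterByExpr and tested two-sided with edgeR 4.0.16 (quasi-likelihood, R 4.3.3) in 1 fit of 28 libraries, 9 groups and 12849 genes (19 residual degrees of freedom, common biological variation coefficient 0.201). P-values were adjusted by Benjamini-Hochberg over all genes, with a threshold of 0.05. CPM are counts per 1000000 of the TMM-scaled library. Library depth was 4144373 to 6686797 counts, and counting intervals cover counting error only. Alternatives were DESeq2 1.42.0, upper-quartile factors, total counts, no filter, only the compared groups and each library left out; a mitochondrial covariate and 5 comparisons were added after the data were seen. Scripts were tested on simulated counts. The members and lists were chosen with earlier results of these data known. Every member is accounted for, with values in each library for those past the threshold, or for the 10 of smallest adjusted p in each line where more passed; other members are given by fold changes, counts and ranges. Promoters and motifs used RefSeq on GRCh38.p14, with 250 bases before each start.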

Additional observations from a re-analysis of the deposited data

How the results depend on the processing

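No call of a member turned in direction under the alternatives run; members that were not called were not followed for sign. Of 39 members tested, the number called in monoculture against 2D was 18 to 23 in WT, 24 to 31 in e.v. and 26 to 29 in cl.21 cells when 1 library was left out, and in co-culture against 2D 20 to 23, 25 to 27 and 21 to 24. The pooled co-culture count was 1 to 7, that of cl.21 against e.v. cells in HoxBan 1 to 4, e.v. against WT cells 0 to 5 in 2D and 5 to 11 in HoxBan, and cl.21 against WT cells 0 to 6 and 5 to 10. With no filter on low counts, which brings back the 5 scarce members, co-culture against monoculture had 1 call in WT, 1 in e.v. and 2 in cl.21 cells and 9 pooled. Cl.21 against e.v. cells then had 1, 1 and 5 in 2D, monoculture and co-culture and 8 in HoxBan, e.v. against WT cells 7 in 2D and 17 in HoxBan, and cl.21 against WT cells 8 and 17. The difference in the HoxBan response from WT cells had 2 calls for e.v. and 4 for cl.21 cells. The pooled count was 2 with DESeq2, 2 with upper-quartile factors, 10 with total counts, 8 with the mitochondrial share in the model and 0 with only the compared groups. Fitting only those groups also gave 3 for cl.21 against e.v. cells in 2D and 1 in co-culture, 0 for e.v. against WT cells in 2D and 4 in HoxBan, and 1 for cl.21 against WT cells in 2D. The mitochondrial share gave 1 for cl.21 against e.v. cells in monoculture and 5 in HoxBan, and DESeq2 gave 4 for cl.21 against WT cells in 2D. Calls over all genes also moved with the setting, in the pooled comparison from 256 to 645 with DESeq2 and 277 with upper-quartile factors. For the other settings the share over all genes is not given beside these counts. The counts alone therefore do not set the members apart from other genes. The cause of the shifts in member counts was not tested. No paired analysis was run. Each library has its own number, and no source names a pairing of libraries between groups. Members under about 1 CPM rest on a few counts, and their folds are limited by depth.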
